A study of Mus musculus with 89 samples.

Results

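A set of 38 synaptic and pan-neuronal genes, taken by symbol from a list, was followed through 3 RNA-seq tables of mouse brain. All 38 members are rows of the hippocampus table (14440 genes) and of the Klotho table (14964 genes), and 34 are rows of the choroid plexus table (13662 genes). Nefl, Rbfox3, Nrxn3 and Nlgn1 are not listed for choroid plexus, so every choroid plexus statement covers 34 members.

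The choroid plexus (CP, 34 libraries) and the hippocampus (H, 38 libraries) came from aged male wild-type C57BL/6 mice, 21 to 24 months old, which received 10 tail vein injections of 100 µL, 1 every 3 days over 25 days. Sex and age are those of the paper's methods, while its legends for these libraries give an equal sex distribution and a narrower age range. The injected fluid was serum of young male C57BL/6 mice (YS), the same serum depleted of extracellular vesicles with a precipitation reagent (YDS), or saline (Sham), and 34 of the 38 mice gave both tissues. Libraries are named as in the labels, with C or H before the number of the mouse. The arm of a mouse stands only in the column names of the deposited tables and in no sample label. Values are therefore given by arm as lowest, median and highest, with no test. A second experiment used 17 libraries of α-Klotho mice, 4 Klko (knockout) and 4 WT-y (wild type) at 2 months, and 5 Klhet (heterozygous) and 4 WT-o (wild type) at 9 months. Genotype and age thus change together between its 2 comparisons. The labels call this tissue brain and the RNA cortical, and the methods call it hippocampus. All 9 markers of hippocampal principal neurons are listed in that table, as are all 8 of striatal neurons and all 14 of choroid plexus epithelium. Being listed thus does not tell the region.

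Neurons pass signals at synapses. Synaptic vesicles fuse with the presynaptic membrane through SNARE proteins, at active zones built by large scaffolds. Neurexins on the presynaptic side bind neuroligins and LRRTM proteins on the postsynaptic side, where PSD-95, Shank and Homer hold receptors and calmodulin-dependent kinases in place. The choroid plexus is an epithelium that makes cerebrospinal fluid and is not a neuronal tissue, while the hippocampus is rich in excitatory neurons. Several members also have transcripts in epithelia, neuroendocrine cells or nerve fibres.

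Values are in CPM, which relate each gene's reads to all counted reads of its library. Low CPM values fell on whole reads in 100% of cases (within 0.05 reads), which gave 27165663 to 46836730 reads per CP library, 23231524 to 40801000 per H library and 26338890 to 40229041 per Klotho library. The CP libraries fall in 2 sets by a technical measure, Spearman's correlation over genes between transcript length and a library's deviation from the usual level (length rho). It was below 0 in 12 libraries, where Ttr, the transthyretin gene of choroid plexus epithelium, took 163015 to 235998 CPM, and above 0 in 22 libraries, where Ttr took 102233 to 137424 CPM. Both sets hold all 3 arms. They follow the numbers of the mice: the 12 are C401 to C418 without C410, and the 22 are C410 and C419 to C440. Why they do so was not tested. In the Klotho experiment, 4 libraries (Klko 1, Klko 4, WT-y 2 and WT-o 2) had 1371 to 2482 CPM summed over 8 striatal neuron markers, against 220.4 to 631 CPM in the other 13. Kl itself was at 2.90, 21.2, 23.3 and 18.0 CPM in Klko, against 237, 66.6, 62.3 and 155 CPM in WT-y, and at 84.7, 54.3, 128, 59.3 and 15.6 CPM in Klhet, against 256, 129, 127 and 198 CPM in WT-o. The targeted gene did not overlap between Klko and WT-y, and Klhet and WT-o overlapped in 1 library. Kl is a gene of choroid plexus epithelium, and the 14 markers of that epithelium summed to between 430.6 and 10799.5 CPM across the same 17 libraries.

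The members were low in choroid plexus and high in hippocampus, but by very different margins. The module mean, the mean of log2(CPM + 0.5) over the members, lay between 1.92 and 4.47 across the 34 CP libraries and between 8.59 and 8.84 across the 38 H libraries. The 2 tables were scaled separately and hold different numbers of members, so these levels are set side by side with no test. In bulk tissue, fewer neurons and less RNA per neuron cannot be told apart.

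Per kilobase of merged exon, the most abundant member in choroid plexus was Vamp2, the vesicle SNARE synaptobrevin, with a median of 30.1 CPM per kb, followed by Nlgn2 (neuroligin 2, a partner of neurexins at inhibitory synapses, 13.0) and Nefh (the heavy neurofilament, 8.93). The order in hippocampus was another one. Nrgn (neurogranin, a calmodulin-binding postsynaptic protein) was at 0.999 CPM per kb in choroid plexus, against 1130 in hippocampus, where it led. Camk2a (a subunit of the calmodulin-dependent kinase) was at 0.442 CPM per kb, against 773 in hippocampus, and Slc17a7 (the vesicular glutamate transporter VGLUT1) at 0.265, against 529.

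Across the 38 H libraries (lowest, median, highest), Syp, a synaptic vesicle membrane protein, was at 1575, 2016 and 2387 CPM, Bsn (Bassoon, an active zone scaffold) at 351, 679 and 926 CPM and Camk2b, a second kinase subunit, at 1386, 1964 and 2623 CPM. Nrxn2 (neurexin 2) was at 383, 635 and 819.8 CPM. Among adhesion and cytoskeletal members, Cadm3 was at 532, 658 and 755 CPM, Pcdh1 at 146, 289 and 389 CPM, Mapt (tau) at 522, 631 and 739 CPM and Nefl (the light neurofilament) at 427.3, 522 and 608 CPM. The highest H library exceeded the lowest by at most 4.28-fold, in Shank1.

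The 4 members that are not listed for choroid plexus were all measured in hippocampus. Nefl was the highest of them in CPM, and Rbfox3 (NeuN, a nuclear marker of mature neurons) was at 331, 379.9 and 479 CPM. Nrxn3 (neurexin 3) was at 110.1, 165 and 245 CPM and Nlgn1 (neuroligin 1, of excitatory synapses) at 35.0, 68.1 and 96.3 CPM.

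Set against the H median, the CP medians of the 34 members ran from 0.0501% to 58.5%, across libraries scaled separately. 9 members were at 5.65% or more of their hippocampal median, and each had at least 1 CPM in all 34 libraries. 6 of these are postsynaptic scaffolds or adhesion proteins, led by Lrrtm2 (a leucine-rich postsynaptic receptor of neurexins) at 58.5%, Homer1 (a scaffold that links Shank to glutamate receptors) at 49.2%, Shank2 at 33.1%, Nlgn2 at 16.6%, Dlg4 (PSD-95) at 6.66% and Nlgn3 (neuroligin 3) at 5.65%. The others were Nefh at 35.8%, Vamp2 at 8.59% and Map2 (a dendritic microtubule protein) at 8.28%. A middle group held Pclo (Piccolo, an active zone scaffold) at 4.71%, Nrxn2 at 2.20% and Stx1a (the SNARE syntaxin 1A) at 1.96%. The other 22 members were at 0.888% or less, lowest in Slc17a7 at 0.0501%, Camk2a at 0.0572% and Nrgn at 0.0884%.

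**Figure D1:**
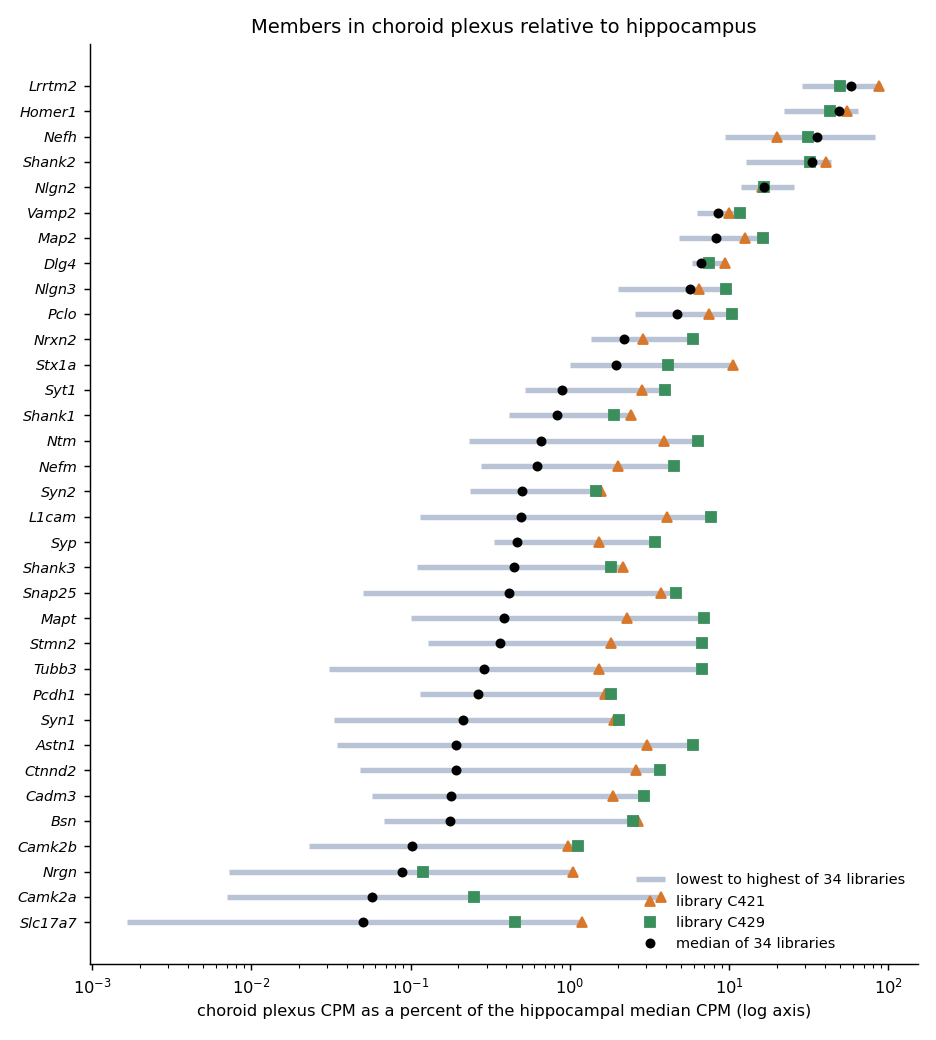
Level of each of the 34 members listed for choroid plexus, as a percent of its median CPM in 38 hippocampal libraries (horizontal log axis); black points are medians and grey bars the lowest to highest of 34 choroid plexus libraries, with C421 and C429 marked. Lrrtm2 (58.5%) and Homer1 (49.2%) stand at the top with short bars, while Camk2a and Slc17a7 at the bottom have the longest bars and their highest library in C421.

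The 9 members with the highest share of the hippocampal level had reads throughout the choroid plexus libraries. Lrrtm2 was at 18.2, 37.1 and 56.9 CPM (lowest, median, highest of 34 libraries), against 41.5, 63.4 and 85.4 CPM in hippocampus. Homer1, on chromosome 13 from 93299635 to 93405129 (GRCm38), was at 21.4, 47.6 and 62.8 CPM, against 60.7, 96.9 and 155 CPM in hippocampus. For both genes the highest CP libraries lay above the lowest H libraries, while both hippocampal medians lay above the CP range.

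Shank2, a scaffold of excitatory synapses, was at 26.8, 68.9 and 90.9 CPM in choroid plexus, against 138, 208 and 266 CPM in hippocampus. Nlgn2 was at 53.9, 75.1 and 116 CPM, against 339, 452 and 567 CPM in hippocampus. Nefh, on chromosome 11 from 4938754 to 4948064, was at 9.40, 35.7 and 81.7 CPM, against 61.7, 99.5 and 128 CPM in hippocampus. The ranges of Nefh also overlapped between the tissues, and those of Shank2 and Nlgn2 did not. Over the 9 members the highest library exceeded the median by 1.32-fold (Homer1) to 2.29-fold (Nefh), and Nefh thus spread more by this ratio than Pclo of the middle group (2.23-fold).

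Vamp2 was at 83.5, 115 and 156 CPM in choroid plexus, against 1100 to 1500 CPM in hippocampus. Dlg4 was at 74.4, 85.0 and 121 CPM, against 974 to 1586 CPM. Map2 was at 18.0, 30.8 and 60.9 CPM, against 244 to 576 CPM. These 3 were well measured in every CP library and lay far below every H library.

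In the 22 members under 1% of their hippocampal level, the highest library exceeded the median by 2.89-fold to 65.3-fold. Of these 22, 14 were highest in C429, 7 in C421 and 1 in C430, all 3 of the YS arm. Slc17a7 was at 0.0476, 1.43 and 34.2 CPM in choroid plexus, against 2019, 2853 and 3616 CPM in hippocampus. Camk2a was at 0.405, 3.30 and 216 CPM, against 3638, 5773 and 7184 CPM. Nrgn was at 0.119, 1.45 and 17.2 CPM, against 1170, 1642 and 2200 CPM. The lowest values rest on few reads, 2 for Slc17a7, 5 for Nrgn and 17 for Camk2a.

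Among the presynaptic members of this low group, Syt1 (synaptotagmin 1, the calcium sensor of vesicle release) was at 8.01, 13.6 and 60.6 CPM and Syp (synaptophysin) at 6.71, 9.44 and 69.1 CPM. Both had at least 1 CPM in all 34 libraries. Snap25, a SNARE of the presynaptic membrane, was at 0.740, 6.13 and 67.8 CPM. The synapsins, which tether vesicles, were at 0.238, 1.54 and 14.7 CPM (Syn1) and at 2.26, 4.80 and 15.0 CPM (Syn2). Bsn was at 0.463, 1.19 and 18.2 CPM.

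The adhesion proteins L1cam, Cadm3, Ctnnd2 (δ-catenin), Ntm (neurotrimin), Astn1 (astrotactin 1) and Pcdh1 (a protocadherin) had CP medians between 0.178% and 0.656% of their hippocampal medians. Cadm3 was the highest of them in CPM per kb, with 0.377, 1.17 and 19.3 CPM, followed by Ntm with 0.293, 0.831 and 8.06 CPM. Astn1 had the widest span of the 6 by the ratio of highest to median, 30.9, at 0.0981, 0.550 and 17.0 CPM. Among the cytoskeletal members, Mapt (the axonal protein tau) was at 0.639, 2.45 and 44.3 CPM, Stmn2 (stathmin 2, a microtubule regulator of growing axons) at 0.346, 0.987 and 18.2 CPM, Tubb3 (the neuronal β-tubulin) at 0.0897, 0.851 and 19.8 CPM and Nefm (the medium neurofilament) at 0.442, 0.991 and 7.18 CPM. Shank1, Shank3 and Camk2b had medians of 8.97, 2.74 and 2.01 CPM, with highest values of 25.9, 13.3 and 22.0 CPM.

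Silencing of neuronal genes outside neurons is known to use the repressor REST, which binds the RE1 element. Promoter windows of RefSeq (GRCm38.p6, 250 bases before to 50 after a start) were found for 24 of the 38 members, 34 windows in all. The left part of RE1 (TTCAGCACC, either strand) is in 0.371% of all 32851 windows and in 1 window each of Syn1 and Nlgn1. Its right part (GGACAGCG) is in 1.26% of all windows and in 0 member windows, and the cAMP response element (TGACGTCA) is in 1.79% of all windows and, among members, in Syn1 only. Both promoters are shown because they alone among the member windows hold the left part of RE1. In choroid plexus Syn1 was at 0.213% of its hippocampal median and Nlgn1 was not listed. Slc17a7, Camk2a and Nrgn were scarcer there (0.0501% to 0.0884%) and are not shown. The windows are chrX:20920869-20921168 for Syn1 and chr3:26153937-26154236 for Nlgn1, both on the minus strand, written 5′ to 3′ on the gene's strand. The Nlgn1 window lies inside the gene, which runs from 25426215 to 26332460, and so belongs to a start other than the outermost. Capitals mark the left part of RE1 and, in Syn1, also the cAMP response element further on.
Syn1: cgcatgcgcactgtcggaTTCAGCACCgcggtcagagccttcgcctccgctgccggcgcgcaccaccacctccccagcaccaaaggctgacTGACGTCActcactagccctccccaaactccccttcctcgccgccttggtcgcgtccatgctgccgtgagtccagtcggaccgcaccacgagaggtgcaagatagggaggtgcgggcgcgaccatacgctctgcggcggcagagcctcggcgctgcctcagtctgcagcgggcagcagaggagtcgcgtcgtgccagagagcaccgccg
Nlgn1: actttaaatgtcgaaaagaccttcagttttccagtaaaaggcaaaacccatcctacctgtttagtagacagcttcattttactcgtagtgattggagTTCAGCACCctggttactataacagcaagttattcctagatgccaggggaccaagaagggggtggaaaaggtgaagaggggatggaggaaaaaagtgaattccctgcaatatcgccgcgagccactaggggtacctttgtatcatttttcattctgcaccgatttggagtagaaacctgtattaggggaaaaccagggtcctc
The RE1 part begins at base 19 of the Syn1 window and at base 98 of the Nlgn1 window. These matches describe the letters only.

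In choroid plexus the module mean had its highest median and its 3 highest libraries in YS. The module mean had a lowest, median and highest value of 2.37, 2.70 and 4.47 in YS (12 libraries), 2.01, 2.40 and 2.94 in YDS (14 libraries) and 1.92, 2.54 and 3.16 in Sham (8 libraries). The arms overlapped. The 4 libraries above 3 were C429 (4.47), C421 (4.36) and C430 (3.41) of YS and C434 (3.16) of Sham, and the YDS maximum of 2.94 was C415. Without C421, C429 and C430, a choice made after seeing the data, YS was at 2.37, 2.65 and 2.87, below the Sham maximum.

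**Figure D2:**
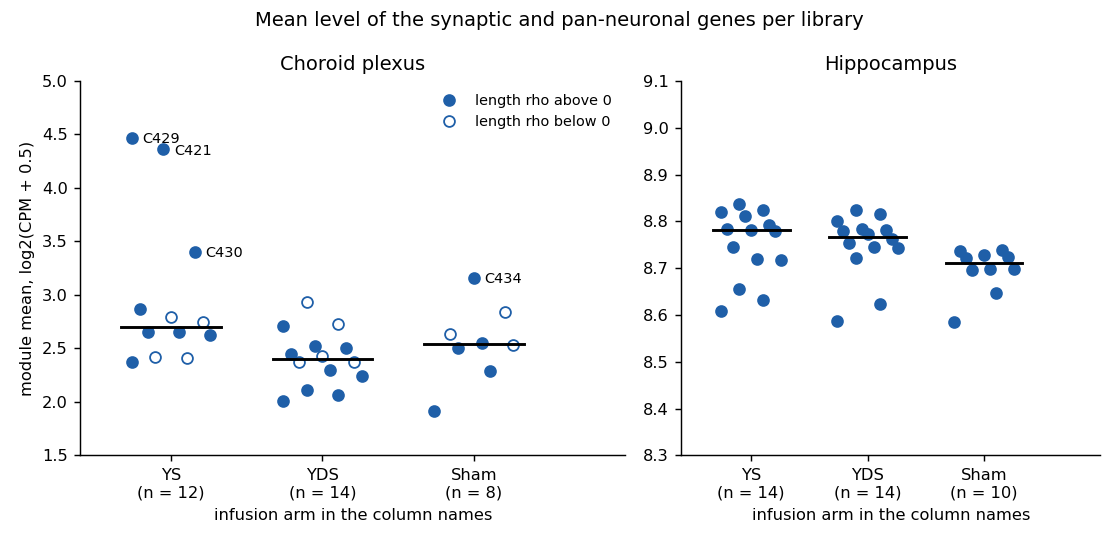
Module mean of log2(CPM + 0.5) per library (vertical axes, with different ranges), over 34 members in choroid plexus (left) and 38 in hippocampus (right), by the infusion arm in the column names; each point is 1 library, the black line is the median, and open points mark choroid plexus libraries with a length rho below 0. C429 (4.47) and C421 (4.36) of YS stand above all other choroid plexus libraries, and the hippocampal values of all arms lie between 8.59 and 8.84.

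Within the 2 sets of libraries the same values were as follows. With a length rho above 0, the module mean was 2.37, 2.76 and 4.47 in YS (8 libraries), 2.01, 2.30 and 2.71 in YDS (9) and 1.92, 2.50 and 3.16 in Sham (5). With a length rho below 0 it was 2.41, 2.58 and 2.80 in YS (4), 2.37, 2.43 and 2.94 in YDS (5) and 2.53, 2.63 and 2.84 in Sham (3). The 4 libraries above 3 all belong to the set above 0.

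By member, the YS median lay above the Sham median for 29 of 34, where 61.6% of all genes did, and the YDS median above the Sham median for 11 of 34 (53.3% of all genes). The median difference between the YS and Sham medians was 0.17 on the log2 scale over the members and 0.03 over all genes. The YS median lay above the YDS median for 29 of 34 members (57.2% of all genes), with a median difference of 0.33 over the members and 0.02 over all genes, and the highest YS library above the highest YDS library for 30 (51.6%). The highest YS library exceeded the highest Sham library for 33 of 34 members (69% of all genes). Between any pair of arms 0 members and 0% of all genes failed to overlap in either direction.

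Without C421, C429 and C430 the YS median still lay above the YDS median for 29 of 34 members (53.4% of all genes), with a median difference of 0.17 on the log2 scale. It lay above the Sham median for 21 (56.2% of all genes), with a median difference of 0.03. With Sham C434 also left out, chosen like the other 3 for its module mean above 3, that count was 24 (59.2% of all genes) and the difference 0.10. Libraries chosen for high values lower any count of highest values when they are left out, so none is given without them.

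C429 was the highest of all 34 CP libraries for 19 of 34 members, 55.9%, where it was highest for 6.35% of all genes. C421 was highest for 9 members, 26.5%, where it was highest for 1.38% of all genes. C430 differed from both, highest for 1 member, 2.94%, and for 18.1% of all genes. C429 and C421 led different members. The postsynaptic and glutamatergic members Camk2a, Nrgn, Slc17a7, Dlg4, Shank1 and Shank3 were highest in C421, as were Bsn, Stx1a and Syn2. The axonal and vesicle members Mapt, Stmn2, Tubb3, Nefm, L1cam, Syp, Snap25 and Syt1 were highest in C429, with Map2, Nlgn3 and Camk2b of the dendritic and postsynaptic side. So were Vamp2, Pclo, Nrxn2, Syn1, Ntm, Astn1, Ctnnd2 and Cadm3. Some leads were small, with Syn2 at 15.0 and 14.0 CPM in C421 and C429, Bsn at 18.2 and 17.0 CPM and Syn1 at 13.6 and 14.7 CPM.

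In C421, Camk2a stood at 216 CPM, against 14.4 CPM in C429 and 3.30 CPM in the median library. Nrgn stood at 17.2 CPM in C421 and 1.97 CPM in C429, near the 1.45 CPM of the median library. Tubb3 showed the reverse order, at 4.48 CPM in C421 and 19.8 CPM in C429. The Camk2a and Tubb3 values place the 2 libraries apart from each other as well as from the rest.

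**Figure D3:**
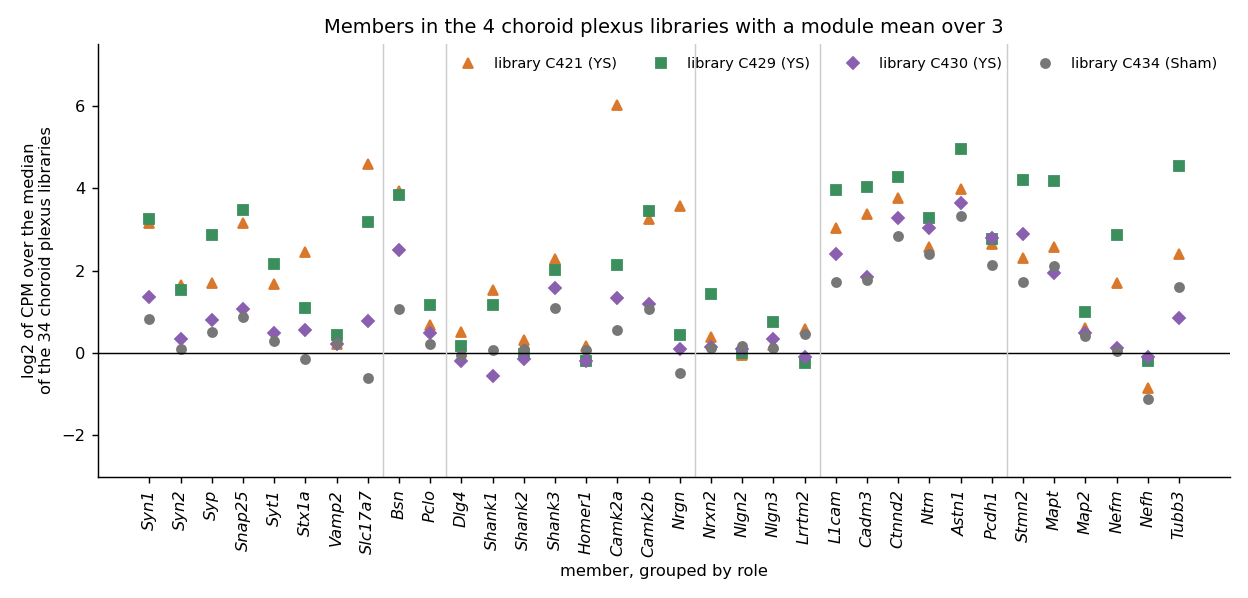
Log2 ratio of a member's CPM to its median over the 34 choroid plexus libraries (vertical axis, 0 is the median), for the 4 libraries with a module mean over 3 and 34 members grouped by role (vertical lines divide the roles). Camk2a, Slc17a7 and Nrgn are highest in C421 (triangles) and Mapt, Stmn2 and Tubb3 in C429 (squares), while Homer1, Nlgn2 and Vamp2 lie near 0 in all 4.

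Markers of other cell types were also high in several of these libraries, though not in them alone. Summed over the 8 of 9 oligodendrocyte markers that are listed, C429 had 897 CPM, C430 311 CPM, C421 163 CPM and Sham C434 398 CPM, where the arm medians were 171 CPM in YS, 119 CPM in YDS and 149 CPM in Sham and C428 (YS, module mean 2.87) had 281 CPM. Mbp (myelin basic protein), a defining marker of these cells, was at 332 CPM in C429. Summed over 8 astrocyte markers, C430 had 1376 CPM, C429 851 CPM, C421 362 CPM and C434 886 CPM, where the arm medians were 277 CPM in YS, 169 CPM in YDS and 176 CPM in Sham. C427, C428 and C422 of YS, with module means below 3, had 553, 498 and 472 CPM of astrocyte markers, more than C421, so C421 was the least marked of the 4 for both glial lists. For endothelial markers C430 was highest, with 320.2 CPM. The GABAergic markers Gad1 and Gad2 summed to 17.4 CPM in C429, 10.7 CPM in C430, 8.84 CPM in C421 and 6.92 CPM in C434, where the arm medians were 3.89 CPM in YS, 1.37 CPM in YDS and 2.51 CPM in Sham. C428 had 13.0 CPM of them, second to C429 among all CP libraries.

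Of 9 markers of hippocampal principal neurons only Dsp, Wfs1 and Hpca are listed for choroid plexus, of 8 GABAergic markers only Gad1 and Gad2, and of 5 cerebellar and 6 hypothalamic markers none. Dsp and Wfs1 were at 40.2 to 136 and 33.6 to 69.9 CPM across all CP libraries, so that list is carried there by genes that are not confined to neurons. Ttr was at 102650 CPM in C429, 102233 CPM in C430, 122656 CPM in C421 and 108312 CPM in C434. The part of the other cell types in the members' levels was not tested.

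A second tier of high values concerned vesicle and glutamatergic members in libraries of the set with a length rho below 0. C415 (YDS) had 6.87 CPM of Slc17a7, 6.24 CPM of Nrgn and 15.6 CPM of Snap25. Sham C406 had 5.58, 5.16 and 17.0 CPM of the same genes. C415 had 157 CPM summed over astrocyte markers and 109.5 CPM over oligodendrocyte markers, below the YDS medians, and C406 had 194 and 208 CPM of the same lists, above the Sham medians. At the other end, Sham C432 had the lowest module mean of 1.92, with 0.0476 CPM of Slc17a7 and 0.405 CPM of Camk2a.

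For the members that were well measured in choroid plexus, values differed between the 2 sets of libraries. Shank2 was at 26.8 to 51.7 CPM in the 12 libraries with a length rho below 0 and at 55.2 to 90.9 CPM in the 22 others. Homer1 was at 21.4 to 40.2 CPM in the 12 libraries and 41.4 to 62.8 CPM in the 22. Nlgn3 was at 2.89 to 6.52 CPM in the 12 and 6.74 to 13.7 CPM in the 22. For these 3 members the sets did not overlap and the 12 libraries were lower, and of all 13662 genes 2054 were wholly lower and 704 wholly higher there. The sets were defined by the length trend of all genes, so these are descriptions.

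Lrrtm2 and Map2 were also lower in the 12 libraries, with medians of 24.1 and 20.7 CPM against 45.5 and 33.0 CPM in the 22. Nefh went the other way, with a median of 59.6 CPM in the 12 and 33.5 CPM in the 22, and Nlgn2 likewise with 97.6 and 69.4 CPM. Within the 22 libraries, Homer1 medians were 49.8 CPM in YS, 51.5 CPM in YDS and 49.7 CPM in Sham, and Shank2 medians were 74.0, 80.2 and 85.1 CPM in the same order. The arms overlapped for both genes.

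Each member was set against the mean log2 level of 6 marker lists over the CP libraries, 204 relations in a family. The plan pooled all 34 libraries. Relations within each set were added outside that plan, because the libraries fall apart into sets. A relation was counted where both Pearson's r and Spearman's rho had a permutation p (100000 resamples) under 0.05 after Benjamini-Hochberg adjustment over the 204. No such count was made over the other genes, so these counts are not shown to be particular to the members. Over all 34 libraries 106 relations were counted, 97 positive and 9 negative. With choroid plexus epithelium 5 of these were positive and 8 negative. In the 22 libraries 128 relations were counted, 105 positive and 23 negative. The positive ones included 28 of 34 members with the GABAergic list, 22 with astrocytes, 21 with oligodendrocytes, 18 with ependymal cells and 16 with the hippocampal list. All 23 negative ones were with choroid plexus epithelium. Without the 2 libraries farthest from each list's median the count was 62, all of them among the 128, with 22 GABAergic, 18 astrocytic, 13 oligodendrocytic, 4 ependymal and 2 hippocampal relations and 3 with epithelium. Without C421, C429 and C430 it was 63, all again among the 128.

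In the 12 libraries 0 relations were counted, with 37 at an unadjusted p under 0.05 by both measures, and fewer libraries give less power. Within arms, with both sets of libraries pooled, the count was 35 in YS, 12 in YDS and 0 in Sham. In Sham 27 relations had both exact unadjusted p-values under 0.05 by the permutation test. Differences between the sets can enter these counts. CPM share 1 total per library, so a rise in one cell type's genes lowers the values of others.

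Mapt with oligodendrocytes had an r of 0.90 and a rho of 0.91 in the 22 libraries (adjusted permutation p = 9.7e-05 and 0.00011) and an r of 0.81 without the 2 farthest ones. In the 12 libraries its r was 0.85 (adjusted p = 0.024, permutation test) and its rho 0.76 (adjusted p = 0.10). Astn1 with astrocytes had an r of 0.87 and a rho of 0.78 in the 22 (adjusted permutation p = 9.7e-05 and 0.00030) and an r of 0.83 without the 2 farthest. Snap25 with the GABAergic markers had an r of 0.84 and a rho of 0.86 in the 22 (adjusted permutation p = 9.7e-05 and 0.00011) and an r of 0.83 without the 2 farthest. These 3 relations thus held in the 22 libraries without the extreme ones.

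Homer1 and Lrrtm2 followed another course. In the 12 libraries Lrrtm2 had an r of 0.95 and a rho of 0.88 with choroid plexus epithelium (adjusted permutation p = 0.0020 and 0.067), and an r of 0.89 without the 2 farthest libraries. In the 22 libraries its r was 0.26 (adjusted permutation p = 0.28). Neither set gave a relation that passed by both measures. Homer1 had an r of 0.92 in the 12 (adjusted permutation p = 0.0071 for r and 0.096 for rho) and 0.61 in the 22, where it fell to 0.18 without the 2 farthest libraries and so rests on those. Map2 with the same list changed sign between the sets, with an r of 0.89 in the 12 (0.58 without the 2 farthest) and -0.76 in the 22 (-0.47 without the 2 farthest). Nrxn2 had an r of -0.75 and a rho of -0.68 with epithelium in the 22 (adjusted permutation p = 0.0014 and 0.0028), and an r of -0.56 without the 2 farthest.

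**Figure D4:**
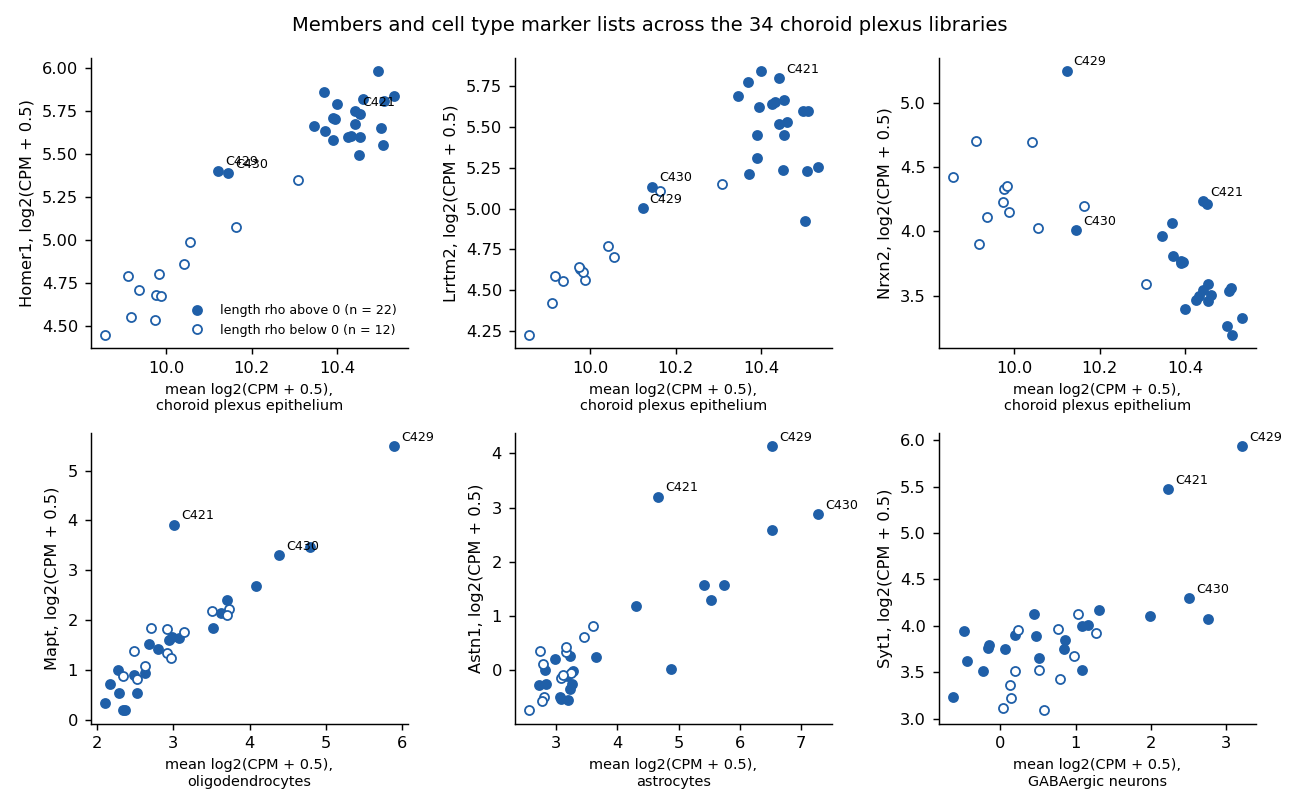
Log2(CPM + 0.5) of 6 members (vertical axes) against the mean log2(CPM + 0.5) of a marker list (horizontal axes) in 34 choroid plexus libraries; filled points are the 22 libraries with a length rho above 0 and open points the 12 below 0, with C421, C429 and C430 named. Homer1 (r = 0.92) and Lrrtm2 (r = 0.95) are higher where choroid plexus epithelium is higher among the open points, and Mapt is higher where oligodendrocytes are higher among both filled (r = 0.90) and open points (r = 0.85).

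Hippocampus showed none of these extremes. The module mean over 38 members was 8.61, 8.78 and 8.84 (lowest, median, highest) in YS (14 libraries), 8.59, 8.77 and 8.82 in YDS (14) and 8.59, 8.71 and 8.74 in Sham (10). The 3 arms overlapped. In the mice that were extreme in choroid plexus it lay within the range of the others, at 8.75 in H421, 8.65 in H429 and 8.78 in H430.

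By member, the YS median was above the Sham median for 25 of 38 (43.9% of all genes) and the YDS median for 27 of 38 (48.2% of all genes), with median log2 differences of 0.06 and 0.07. The highest YDS library exceeded the highest Sham library for 17 of 38 members (42.8% of all genes). Camk2a, Bsn, Slc17a7 and Syp had higher medians in both serum arms than in Sham. Camk2a was at 4207, 5691 and 6622 CPM in YS, 4212, 5918 and 7184 CPM in YDS and 3638, 5009 and 6767 CPM in Sham. Bsn was at 386, 740 and 926 CPM in YS, 351, 724 and 801 CPM in YDS and 366, 603 and 713 CPM in Sham. Slc17a7 had medians of 2865, 2865 and 2516 CPM in YS, YDS and Sham, and Syp of 2018, 2091 and 1842 CPM. Every one of these ranges overlapped between arms.

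Others had the opposite order of medians. Homer1 was at 72.2, 84.7 and 130.2 CPM in YS, 63.3, 97.1 and 112 CPM in YDS and 60.7, 108 and 155 CPM in Sham. Snap25 had medians of 1340, 1480 and 1666 CPM in YS, YDS and Sham. The medians of Pclo (133, 136 and 138 CPM) and Nlgn2 (453, 459 and 439.4 CPM) lay close together, as did those of Nrxn2 (631, 645 and 622 CPM) and Nefl (513, 524 and 542 CPM).

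In the Klotho experiment 8 of the 38 members were lower in Klko than in WT-y by limma (adjusted p under 0.05 over 14964 genes), 0 were higher and 30 did not pass. Of all genes 11.3% passed, 6.44% lower and 4.83% higher. Before adjustment 14 members were lower and 2 higher (16.3% and 12.7% of all genes; 28.9% in all). The 8 come from several roles: the vesicle sensor Syt1, the scaffold Pclo, the postsynaptic Homer1, the adhesion proteins Lrrtm2, Nlgn3 and Pcdh1, and the neurofilaments Nefh and Nefm. Their count depends on the fit. It was 1, Lrrtm2, in a fit of only the 8 libraries of these groups, in which 8 of all genes were higher and 12 lower, and 4 with the length trend removed (3 lower, 1 higher). Leaving out WT-y 2 gave 19, leaving out Klko 3, WT-y 1 or WT-y 3 gave 3, and leaving out Klko 4 or WT-y 4 gave 4. Without the 4 libraries high in striatal markers, a choice made after seeing the data, it was 21 (17 lower, 4 higher).

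Lrrtm2 was at 37.6, 39.6, 40.0 and 39.1 CPM in Klko, against 61.6, 55.9, 64.3 and 57.0 CPM in WT-y (log2 fold change -0.60, standard error 0.09, adjusted p = 0.0044 by limma). In Klhet it was at 39.9, 44.6, 46.5, 49.7 and 48.1 CPM, against 46.0, 62.5, 48.8 and 50.1 CPM in WT-o (-0.17, standard error 0.09, adjusted p = 0.45). Every Klko library lay below every WT-y library, and the older groups overlapped.

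Nefh was at 57.3, 41.1, 43.0 and 51.9 CPM in Klko, against 71.8, 71.8, 75.4 and 83.2 CPM in WT-y (log2 fold change -0.65, standard error 0.15, adjusted p = 0.016 by limma). Nefm, on chromosome 14 from 68082590 to 68124846, was at 137, 109, 88.8 and 126 CPM in Klko, against 167, 182, 179 and 164 CPM in WT-y (-0.60, standard error 0.15, adjusted p = 0.020). Both neurofilaments were lower in every Klko library, and the light chain Nefl, at 379, 462, 410.4 and 410.8 CPM in Klko against 518, 441, 502 and 474 CPM in WT-y, did not pass (-0.22, adjusted p = 0.084).

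Homer1 was at 79.9, 68.5, 70.5 and 86.1 CPM in Klko, against 100.5, 153, 105 and 92.8 CPM in WT-y (log2 fold change -0.54, standard error 0.13, adjusted p = 0.019 by limma). Pclo, on chromosome 5 from 14514918 to 14863459, was at 116, 99.4, 95.1 and 107 CPM in Klko, against 142, 129, 126 and 122 CPM in WT-y (-0.31, standard error 0.09, adjusted p = 0.037). Neither overlapped between the groups. With the length trend removed Pclo was at -0.09. The highest Homer1 value, 153 CPM, was library WT-y 2, which is high in striatal markers.

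Syt1 was at 892, 855, 668 and 799 CPM in Klko, against 1147, 848, 1286 and 1134 CPM in WT-y (log2 fold change -0.45, standard error 0.12, adjusted p = 0.030 by limma). Pcdh1 was at 93.2, 146, 128 and 130.5 CPM in Klko, against 220.4, 119, 190.4 and 208 CPM in WT-y (-0.55, standard error 0.17, adjusted p = 0.043). Nlgn3 was at 85.8, 105, 96.0 and 102 CPM in Klko, against 153, 91.2, 147 and 141 CPM in WT-y (-0.43, standard error 0.13, adjusted p = 0.046). In all 3 genes library WT-y 2 lay within the Klko range, and the other WT-y libraries lay above it. Pcdh1 and Nlgn3 lost the call under 18 and 19 of 28 alternatives.

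**Figure D5:**
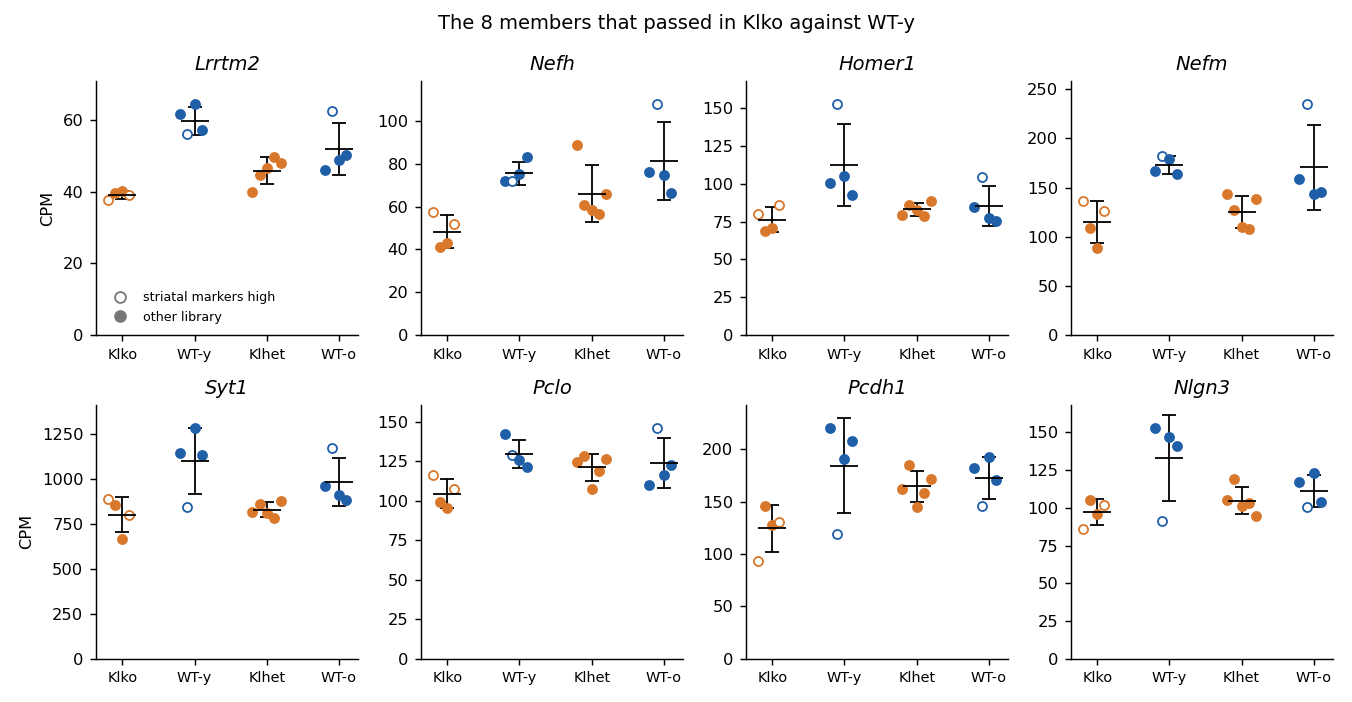
CPM (vertical axes, from 0) of the 8 members that passed in Klko against WT-y, in 4 Klko, 4 WT-y, 5 Klhet and 4 WT-o libraries; points are libraries, bars the mean and SD, and open points the 4 libraries high in striatal markers. Lrrtm2 in Klko (37.6 to 40.0 CPM) lies below all other groups except the lowest Klhet library (39.9 CPM), and in Syt1, Pcdh1 and Nlgn3 the open WT-y point lies with the Klko points.

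Members whose groups did not overlap but which did not pass were Snap25, at 1405, 1401, 1253 and 1295 CPM in Klko against 1581, 2041, 1684 and 1486 CPM in WT-y (-0.33, adjusted p = 0.077 by limma), and Dlg4, at 1458, 1430, 1476 and 1406 CPM in Klko against 1146, 1394, 1124 and 1138 CPM in WT-y (0.27, adjusted p = 0.053). Of all genes, 6.65% lay wholly lower and 5.6% wholly higher in Klko. The member median was -0.14 and the median of all genes -0.02 on the log2 scale. The module mean was 8.47 ± 0.05 (SD, n = 4) in Klko and 8.62 ± 0.03 (SD, n = 4) in WT-y.

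The members that did not pass had values in both directions. The postsynaptic members Shank3 and Camk2a had log2 fold changes of 0.52 (adjusted p = 0.094) and 0.28 (adjusted p = 0.27), while Syn1 (-0.25, adjusted p = 0.064), Bsn (-0.25, 0.12), Mapt (-0.22, 0.098), Astn1 (-0.32, 0.12), Syp (-0.25, 0.21) and L1cam (-0.40, 0.19) had negative ones, all by limma. Map2 (0.25, adjusted p = 0.18), Nrxn2 (0.15), Rbfox3 (0.11) and Ctnnd2 (0.15) were positive. Vamp2, Nlgn2, Ntm, Shank1, Shank2, Camk2b, Stx1a and Tubb3 lay between -0.07 and 0.07, and Cadm3, Stmn2, Syn2, Nlgn1, Slc17a7, Nrgn and Nrxn3 between -0.24 and -0.07.

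Of 30 other presynaptic genes 5 were lower in Klko and 0 higher: Sv2b (a vesicle glycoprotein, -0.76, adjusted p = 0.0050 by limma), Snap91 (a clathrin adaptor, -0.34, 0.0087), Cacna1a (a presynaptic calcium channel, -0.28, 0.044), Unc13a (a vesicle priming factor, -0.23, 0.047) and Synj1 (a lipid phosphatase of vesicle recycling, -0.43, 0.048). Of all genes 6.44% were lower. By edgeR 3 of the list were lower (Sv2b, Snap91 and Synj1) and by DESeq2 5, Unc13a among them, while Cacna1a passed by limma only. Of 20 other postsynaptic genes 0 passed, where 2 were higher and 3 lower before adjustment, 0 passed by edgeR and 1, Dlg3, was lower by DESeq2. The smallest p-values of that list were those of Dlg3 (-0.32, adjusted p = 0.052 by limma), Dlgap3 (0.66, 0.074), Iqsec1 (-0.18, 0.11) and Kalrn (-0.28, 0.15), scaffolds and exchange factors of the postsynaptic side. Of 21 other cytoskeletal and pan-neuronal genes 2 were lower, Ina (internexin, -0.35, adjusted p = 0.031) and Elavl4 (a neuronal RNA-binding protein, -0.47, 0.035), where edgeR gave the same 2 and DESeq2 4 lower and 1 higher. Ank2 (-0.23, adjusted p = 0.050 by limma) and Celf4 (0.30, 0.055) came next and did not pass.

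Markers of other regions and a technical trend moved with this comparison. Striatal markers averaged 6.93, 3.66, 5.33 and 7.63 (mean log2) in Klko 1 to 4, against 4.31, 6.77, 3.90 and 3.90 in WT-y 1 to 4, and the 9 hippocampal markers 5.99, 7.17, 6.60 and 6.26 in Klko, against 7.26, 5.58, 6.97 and 6.92 in WT-y. Length rho was -0.32 to -0.12 in Klko, against 0.24 to 0.32 in WT-y 1, 3 and 4 and -0.09 in WT-y 2. The members are long, with a median merged exon length of 7498 bases where all genes have 4437. Beyond the counts without the 4 libraries and with the length trend removed, their part was not tested.

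In Klhet against WT-o 0 of 38 members passed by limma, where 5 were higher and 1 lower before adjustment (3.8% and 7.5% of all genes), and 0 passed by edgeR or DESeq2 on recovered reads. Of all 14964 genes 0% passed by limma, 0 by edgeR, and 1 higher and 5 lower by DESeq2. Groups did not overlap for 4 higher members (Dlg4, Shank3, Ctnnd2 and Shank1, 2.16% of all genes) and 2 lower ones (Nefm and Syt1, 4.56%). The module mean was 8.52 ± 0.07 (SD, n = 5) in Klhet and 8.53 ± 0.03 (SD, n = 4) in WT-o. Length rho did not overlap here either, at -0.18 to -0.047 in Klhet and -0.008 to 0.24 in WT-o. The member median was -0.035 (13 of 38 positive), against -0.056 over all genes. With the length trend removed it was 0.047 (26 positive), against 0.005, and with RLE factors 0.013 (22 positive), against -0.011. The part of this trend was not tested further. Nefm was the lower member before adjustment, at 143, 127, 110.0, 107 and 139 CPM in Klhet, against 159, 235, 144 and 146 CPM in WT-o (-0.43, standard error 0.14, adjusted p = 0.41 by limma). Every Klhet library of Nefm lay below every WT-o library. Map2 (0.35), Camk2a (0.37), Shank1 (0.47), Shank3 (0.45) and Dlg4 (0.18) were the higher members before adjustment, with log2 fold changes as given and adjusted p-values of 0.41 to 0.43 by limma. Their number fell to 1 without WT-o 2, a library high in striatal markers, or without Klhet 2. Of all genes 274 and 586 were then higher before adjustment, against 568 in the main fit.

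The difference between the Klko and the Klhet effect passed for 0 of 38 members and 0% of 14964 genes by limma, where 4 members were lower and 0 higher before adjustment (3.43% and 5.44% of all genes, 8.87% in all). By edgeR and DESeq2 0 members passed either. Of all genes 0 passed by edgeR, and 23 were higher and 25 lower by DESeq2, with the presynaptic Sv2b and Snap91 among the lower. By limma the difference was -0.43 ± 0.13 (standard error) for Lrrtm2 (adjusted p = 0.40), -0.51 ± 0.18 for Homer1 (0.45), -0.39 ± 0.15 for Bsn (0.46) and -0.28 ± 0.13 for Pclo (0.52). No member was thus shown to differ between the 2 effects. Replicates are the numbered libraries of a group, and p-values measure the spread between these.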

How the data were processed

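RNA-seq tables of 34 CP, 38 H and 17 Klotho libraries were used. The deposited values are CPM, which the authors made, per their methods and the submitters' processing notes, by aligning to mm10 with Subread, counting per gene with featureCounts and scaling in edgeR. The CPM carry no further scaling factor, and 100% of low values were whole reads within 0.05 reads. Deposited columns of the authors' own comparisons (log2 fold changes, p-values, false discovery rates, mean log2 CPM and gene marks) were not used. Of the gene symbols, 19, 21 and 23 in the CP, H and Klotho tables that a spreadsheet had turned into dates were restored, and 3 rows with repeated symbols of the Klotho table were left out.

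The members and all lists were chosen with earlier results of these data known. All members are named. Full values were given to the members that passed in Klko against WT-y, to the 2 with the highest median of each role in each tissue, to the 5 highest and 3 lowest in CP relative to H, and, from each pathway list, up to 4 with the smallest p. Other members were given values after these were seen.

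Klotho groups were compared with limma 3.58.1 (trend, R 4.3.3) on log2(CPM + 0.5) in 1 fit of 17 libraries and 14964 genes, two-sided, with Benjamini-Hochberg adjustment over all genes and a threshold of 0.05. All fold changes are on that log2(CPM + 0.5) scale, on which changes of scarce genes come out smaller. Tested on simulated data for Klko against WT-y (14964 genes), the fit recovered 86% of 100 genes changed 2-fold and 49% of 100 changed 1.5-fold, with 7 false calls. The simulated counts were independent negative binomial draws, without a length trend or differences in region markers. These rates thus do not cover libraries that differ in those. Recovered reads went into edgeR 4.0.16 and DESeq2 1.42.0 as alternatives. Alternatives also covered TMM and RLE factors, pseudocounts of 0.1 and 1, a filter of at least 1 CPM in 4 libraries, a fit of only the groups compared, the replicate number as a block, removal of the length trend by loess (span 0.3, 14502 genes with a length) and leaving out each library. Correlations used two-sided permutation tests in Python 3.11.15 with NumPy 2.4.6 (100000 resamples, smallest p 1e-05, exact in Sham), and the Benjamini-Hochberg adjustment was computed there too. For the Klotho module means the length trend was removed with lowess of statsmodels 0.14.6. Merged exon lengths and positions came from GENCODE annotation of GRCm38 and promoters from RefSeq.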

Additional observations from a re-analysis of the deposited data

Results flagged for a closer look

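In 72 sets of CPM values (18 named members, each in 4 groups of 4 or 5 Klotho libraries) and in the module mean of the 4 groups, the library farthest out was tested with Dixon's criterion, which chance passes in about 1 of 20 groups, and 4 of these 76 passed. Nefm in WT-o 2 was at 234.9 CPM, above the other WT-o libraries at 144 to 159 CPM. Cadm3 in WT-y 2 was at 322 CPM, below the other WT-y libraries at 456 to 482 CPM. Mapt in WT-o 2 was at 601 CPM, above the others at 543 to 547 CPM. These 3 values lie in libraries high in striatal markers. Mapt in WT-y 1 was at 525 CPM, below the other WT-y libraries at 561 to 567 CPM.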

How the results depend on the processing

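The count of members called in Klko against WT-y was 8 and ranged from 3 to 19 when 1 library was left out (3 without Klko 3, WT-y 1 or WT-y 3, and 19 without WT-y 2). It was 1 in a fit of only the 2 groups, 4 with the length trend removed (14502 genes) and 21 without the 4 libraries high in striatal markers, an alternative chosen after seeing the data. The calls over all genes in these fits, given above, moved as well. With the replicate number as a block the member count was 0, where 3 of all genes were higher and 1 lower. Same-numbered libraries did not deviate together (correlations of -0.48 to 0.02), so the numbers do not pair the libraries. The member count stayed within 1.5 times under TMM and RLE factors (6 each), edgeR (7), DESeq2 (10), both pseudocounts and the filter (8 each). All genes called were 790 higher and 930 lower by edgeR and 1177 and 1320 by DESeq2, against 723 and 964 by limma. Of 224 repeat tests of the 8 members, 157 kept their side of the threshold, 67 lost it and 0 changed direction. Lrrtm2 lost it only under the block. The causes of these changes were not tested.

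Klhet against WT-o and the difference between the effects gave 0 members under every alternative run (28 and 27). Among members that did not pass, Nrxn3 (-0.13) was at 0.037 with the length trend removed and ran from -0.30 to 0.027 (without Klko 3) when 1 library was left out. Nlgn1 (-0.10) was at 0.079 with the trend removed and ran from -0.28 to 0.0061 (without WT-y 3). Shank1 (0.07) ran from -0.11 (without Klko 3) to 0.23 (without WT-y 2). The module mean moved to 8.58 in WT-y with the length trend removed, and to 8.50, 8.49 and 8.47 in WT-o with RLE factors, TMM factors and the trend removed. In choroid plexus the median module mean was 2.11 in YDS with a pseudocount of 0.1. With only members of at least 1 CPM in most libraries it was 2.91 in YDS and 3.04 in Sham. Where members had few reads in choroid plexus, depth limits the values.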
